A study of Homo sapiens with 20 samples.

Results

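The mitochondrial ribosomal protein genes are the nuclear genes for the protein part of the ribosome that works inside mitochondria. They were chosen by name: every gene whose symbol in the array annotation begins with MRPL or MRPS followed by a digit, with pseudogenes and antisense transcripts left out. The rule gave 75 genes, all of which passed the filter on low intensity, among 17860 genes tested. MRPS24 and MRPL53 lie only on probe sets that carry several gene symbols and were not measured here, and MRPL20-AS1 and MRPL45P2 were left out as an antisense gene and a pseudogene.

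Mitochondria keep their own small genome, which encodes core subunits of the respiratory chain, and translate it with a ribosome of their own. The RNAs of this mitoribosome come from the mitochondrial genome, whereas its proteins are made in the cytosol from nuclear genes and imported. Part of these proteins descend from bacterial ribosomal proteins and part have no bacterial counterpart. By its place in the assembled particle, a gene was assigned to the large subunit, which holds the peptidyl transferase center (50 members), or to the small subunit, which binds mRNA (25 members). MRPS30 and MRPS18A sit in the large subunit in spite of their names. A bacterial counterpart exists for 47 members, and 28 are particular to mitochondria.

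RNA was taken from 4 lines derived from U937, a human myelomonocytic leukemia line. E10 and E14 are 2 clones of U937T_EVI1-HA, in which HA-tagged EVI1, a transcription factor of hematopoietic stem cells, is repressed by tetracycline (tet) and induced when tet is withdrawn. P2 is a single clone with the empty vector (U937T_vec) and U937T is the parental line. E10 and E14 were sampled at 6, 12, 24 and 48 h without and with tet (16 arrays), and P2 and U937T at 48 h without and with tet (4 arrays). All lines carry the tet-responsive transactivator. All lines were grown under puromycin, and per the labels only E10, E14 and P2 also under hygromycin, and cells were washed in both culture conditions. There was 1 array per line, time and condition, so that the 2 clones stood in for replicates of each other, and so did the 2 control lines, which lack the transgene. With the line as a block in the fit, p-values measure how the gap between the 2 lines of a kind varied from group to group. Variation between cultures and arrays is part of that spread.

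Values are log2 intensities, so that a difference of -1 is a 2-fold lower signal, and probe sets differ in efficiency, so that levels were compared within a gene only. Each change is the culture without tet minus the culture with tet. The EVI1 clone response is the mean change of E10 and E14, the control line response that of P2 and U937T, and the EVI1-specific response at 48 h the clone response minus the control line response. A gene is said to have risen or fallen where its adjusted p in limma, over all genes, was under 0.05. Errors are standard errors of that fit.

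The arrays differed little in their medians (5.25 to 5.35). MECOM, the gene for EVI1, was read from the brightest of its 5 probe sets, and the others read at most 3.68 on any array. Without tet the brightest read 8.52, 9.52, 9.64 and 10.51 in E10 at 6, 12, 24 and 48 h. In E14 it read 8.63, 9.92, 9.60 and 9.98, against 7.06 to 7.34 in these clones with tet. It read 5.91 in P2 and 6.53 in U937T without tet, against 6.90 in P2 and 6.48 in U937T with tet. As a check of the cell type, 9 markers of myelomonocytic cells were measured at a median mean level of 10.2, with MPO at 4.97. The medians were 5.09 for 7 lymphoid, 5.52 for 5 erythroid and megakaryocytic and 4.91 for 5 epithelial and fibroblast markers, whose probe sets differ in efficiency, so that these levels are given without ranking. At 48 h in the clones 4 myelomonocytic markers rose and 1 fell, 2 lymphoid markers rose, and none of the others passed the test. The 3′ to 5′ difference of control probes, a sign of RNA length, ran from 0.19 to 1.52 with a median of 0.71 and was highest in E14 at 24 h (1.40 without and 1.52 with tet). Whether any of these moves the values below was not tested beyond the fits named in the closing section. In bulk RNA, less RNA per cell and fewer cells with that RNA cannot be told apart.

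A sequence feature that the choice by name did not use was more frequent in the promoters of these genes than in promoters in general. RefSeq promoter windows of 300 bases (250 before and 50 after the start site, GRCh38.p14) were matched for 67 of 75 members and searched on both strands. CCGGAAG, the core of binding sites of the ETS family such as GABPA, a factor known for nuclear genes of mitochondrial function, was in 27 of 67 windows (40.3%), against 10.3% of 35116 windows in the table and 12.8% of the 22198 windows of protein-coding genes. CACGTG, the E-box, was in 9 of 67 (13.4%), against 7.26% of all windows. CCAAT was in 22 of 67 (32.8%), against 34.6%, TATAAA in 2 of 67 (2.99%), against 11.5%, and the core of the NRF1 site in 1 of 67 (1.49%), against 1.24%. MRPL4, MRPL24 and MRPS17, which fell more than MRPL3 in the clones at 48 h, had neither CCGGAAG nor CACGTG in their windows. The stretches below run 5′ to 3′ on the strand of the gene and carry the motif in capitals. They come from members with large falls at 48 h (MRPS2, MRPL3 and MRPS26) and with the smallest changes (MRPL51 and MRPL49).
MRPL3, CCGGAAG, chr3:131502972-131503030, minus strand: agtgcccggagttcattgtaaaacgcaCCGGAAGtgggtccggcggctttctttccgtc
MRPS26, CCGGAAG on the opposite strand, chr20:3045988-3046047, plus strand: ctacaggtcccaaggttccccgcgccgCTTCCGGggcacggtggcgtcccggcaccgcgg
MRPL51, CCGGAAG on both strands, chr12:6493334-6493393, minus strand: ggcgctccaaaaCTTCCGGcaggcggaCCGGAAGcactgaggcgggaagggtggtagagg
MRPS2, CACGTG, chr9:135499882-135499941, plus strand: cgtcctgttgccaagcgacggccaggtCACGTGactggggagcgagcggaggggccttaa
MRPL49, CACGTG, chr11:65121933-65121970, plus strand: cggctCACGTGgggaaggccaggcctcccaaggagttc

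The same letters thus stood before genes with large and with small changes. The median EVI1 clone response at 48 h was -0.45 for the 27 members with CCGGAAG and -0.60 for the 40 without, and -0.46 for the 9 members with CACGTG and -0.55 for the 58 without. A match is a description of the window and not a bound site.

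After tet withdrawal from the EVI1 clones, the mitochondrial ribosomal protein genes changed little at 6 and 12 h, fell in part at 24 h and fell in most cases at 48 h. No member rose in any comparison. At 6 h no member fell or rose (genes 0% in each direction, at an unadjusted p under 0.05 also 0 members), and the median change was -0.07, against -0.004 over all genes. At 12 h again none passed (genes 0.0112% lower and 0.0168% higher, 1 member, MRPS2, at an unadjusted p under 0.05), with a median of -0.01, against -0.007. At 24 h 30 of 75 fell, where 9.16% of genes fell and 7.97% rose, and the median was -0.23, against 0.007. At 48 h 57 of 75 fell, where 14.7% of genes fell and 16% rose, and the median was -0.51, against -0.04. All 30 genes that fell at 24 h were among the 57 that fell at 48 h. Leaving out E10 or E14 leaves 1 array per group of the clones, and fewer members passed at 24 and 48 h. Fewer of all genes passed there as well. Without the E14 arrays at 12 and 24 h 59 members fell at 48 h, where 2386 of 17860 genes fell. That fit leaves 1 array of the clones per condition at 24 h, and fewer members and genes fell at 24 h.

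**Figure D1:**
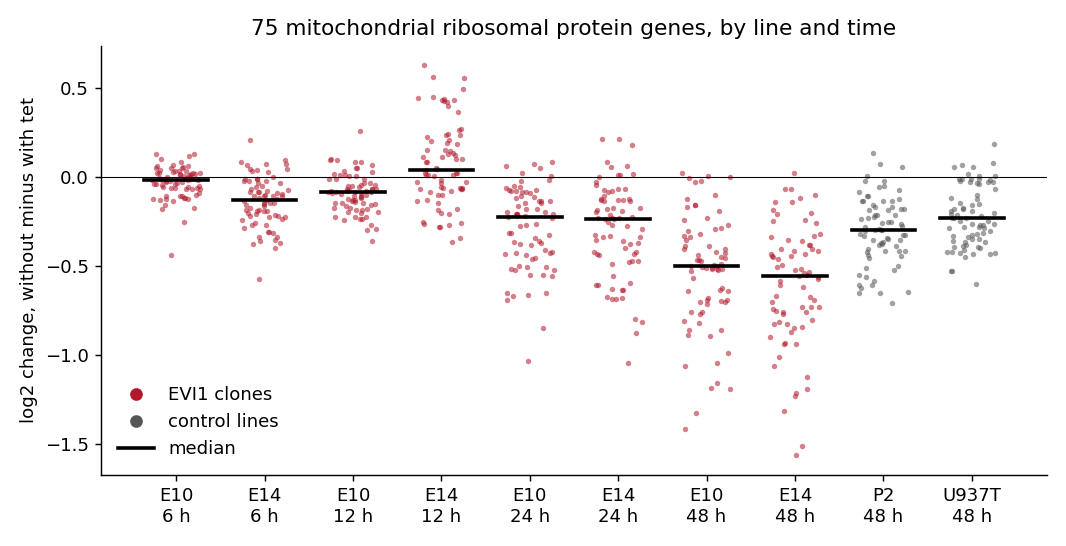
Log2 change, culture without minus culture with tet, of the 75 genes in each line at each time (each point a gene, the black line their median). In E10 the median is -0.01, -0.08, -0.22 and -0.50 at 6, 12, 24 and 48 h, in E14 it is -0.13, 0.04, -0.23 and -0.56, and at 48 h it is -0.29 in P2 and -0.23 in U937T.

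Most members were lower without than with tet at 48 h in each line, where no single line was tested. In E10 72 of 75 members were lower (55.9% of genes) and in E14 74 (51.1% of genes), with medians of -0.50 and -0.56 for the members, against -0.05 and -0.01 over all genes. In P2 71 members were lower (55.9% of genes) and in U937T 67 (49.5% of genes), with medians of -0.29 and -0.23, against -0.04 and 0.001 over all genes. The median level of the members was 9.83 in E10 and 9.81 in E14 without tet, against 10.36 in E10 and 10.41 in E14 with tet. In the control lines it was 10.02 in P2 and 10.04 in U937T without tet, against 10.26 in P2 and 10.21 in U937T with tet. For 70 of 75 members both clones without tet lay below both clones with tet (35.2% of genes, and 29.6% of genes above, 0 members above). For 63 of 75 members both control lines without tet lay below both with tet (26.8% of genes, and 22.1% above, 0 members above).

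In the control lines, which lack the EVI1 transgene, 19 of 75 members fell at 48 h, where 5.3% of genes fell and 5.41% rose, and the median was -0.27, against -0.02 over all genes. All 19 were among the 57 that fell in the clones, and their changes ran from -0.62 to -0.30. The 3 with the lowest values were MRPS2 (-0.62 ± 0.08, adjusted p = 0.000384), MRPL4 (-0.54 ± 0.10, adjusted p = 0.00292) and MRPS26 (-0.52 ± 0.14, adjusted p = 0.0293). These p-values rest largely on how the gap between E10 and E14 varied from group to group, since the clones supply 16 of 20 arrays. Leaving out any line leaves 1 array per group of its kind. Fewer members and fewer of all genes passed in each such fit.

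The clone response exceeded the control line response for most members in size, and for 7 of 75 by the test of the difference itself. The median EVI1-specific response was -0.29, against -0.004 over all genes, and 7 members fell further in the clones, where 3.03% of genes were lower and 2.43% higher. For 61 of 75 members the changes of both clones at 48 h lay below those of both control lines (22.9% of genes, and 22.8% of genes above, 0 members above). With tet, both clones lay above both control lines for 55 of 75 members (24.9% of genes) and below for 2 (16.9%). Without tet, both clones lay below both control lines for 44 of 75 members (30% of genes) and above for 9 (28.7%). In these cultures with tet the MECOM probe set read 7.13 in E10 and 7.15 in E14, against 6.90 in P2 and 6.48 in U937T. The part of these differences with tet in the EVI1-specific values was not tested. Without E10 or without E14 the count of EVI1-specific members was 0 in each case.

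**Figure D2:**
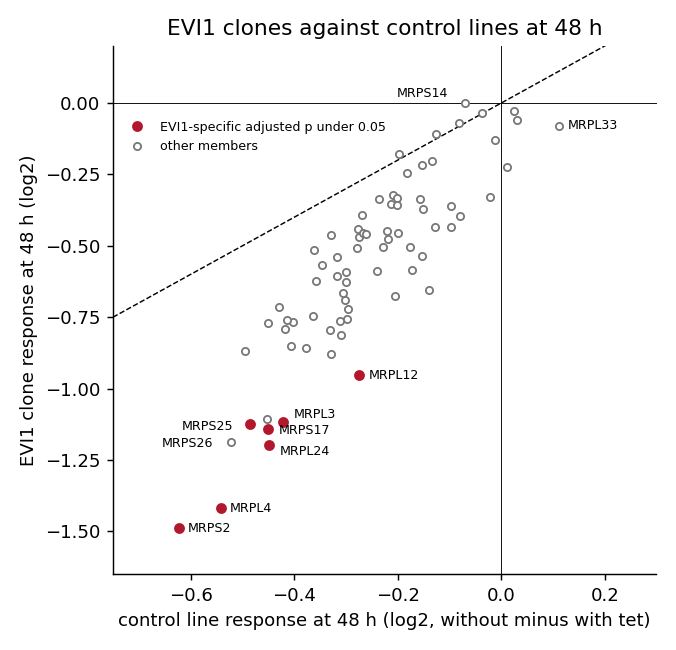
Mean change of E10 and E14 at 48 h (vertical axis) against that of P2 and U937T (horizontal axis), log2, 1 point per gene. The dashed line marks equal change. The 7 members with an EVI1-specific fall (red) have clone responses of -1.49 to -0.95, and MRPS14 and MRPL33 lie near 0 on the vertical axis.

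Of the 7 members with an EVI1-specific fall, 4 belong to the large subunit (MRPL4, MRPL24, MRPL3 and MRPL12) and 3 to the small subunit (MRPS2, MRPS17 and MRPS25). All but MRPS25 have a bacterial counterpart. Their values on each array follow.

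MRPL4 is the counterpart of the bacterial protein L4 of the large subunit. In E10 it read 11.24, 11.39, 10.90 and 9.98 without tet at 6, 12, 24 and 48 h, against 11.30, 11.56, 11.55 and 11.31 with tet. In E14 it read 11.40, 11.34, 10.87 and 9.97 without tet, against 11.31, 11.48, 11.66 and 11.48 with tet. In the control lines it read 10.67 in P2 and 10.79 in U937T without tet, against 11.32 in P2 and 11.22 in U937T with tet. The arrays with and without tet separated in both clones at 24 and 48 h, and in both control lines by less. The clone response at 48 h was -1.42 ± 0.10 (2.67-fold lower, adjusted p = 8.76e-08) and the EVI1-specific response -0.88 ± 0.14 (adjusted p = 0.00179). The other probe sets of MRPL4 gave clone responses of -1.47 and -1.11, against control line responses of -0.60 and -0.45. When each gene was read from its probe set with the largest SD, the EVI1-specific response of MRPL4 did not pass the test.

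MRPS2 is the counterpart of bacterial S2 in the small subunit and had the largest clone response of all members. In E10 it read 10.05, 9.94, 9.29 and 8.48 without tet, against 10.07, 10.11, 10.14 and 9.89 with tet. In E14 it read 10.03, 9.93, 9.30 and 8.39 without tet, against 10.04, 10.18, 10.18 and 9.96 with tet. In P2 it read 9.14 and in U937T 9.21 without tet, against 9.79 and 9.81 with tet. Both clones had their lowest level at 48 h without tet, below both control lines without tet. The clone response was -0.86 ± 0.08 at 24 h (adjusted p = 9.25e-06) and -1.49 ± 0.08 at 48 h (2.81-fold lower, adjusted p = 1.49e-08). The EVI1-specific response was -0.87 ± 0.12 (adjusted p = 0.000658), and it had the lowest adjusted p of all members in that comparison.

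MRPL24 is the counterpart of bacterial L24. At 24 and 48 h it read 9.03 and 8.40 in E10 and 8.88 and 8.30 in E14 without tet, against 9.68 and 9.58 in E10 and 9.69 and 9.51 in E14 with tet. P2 and U937T had 9.00 and 9.06 without tet, against 9.55 and 9.41 with tet. The clones at 24 h without tet thus stood near the control lines at 48 h without tet. The clone response at 48 h was -1.20 ± 0.09 (adjusted p = 1.56e-07) and the EVI1-specific response -0.75 ± 0.12 (adjusted p = 0.00256).

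MRPL3, the counterpart of bacterial L3, a protein close to the peptidyl transferase center, was tested on a single probe set. At 24 and 48 h it read 11.88 and 11.15 in E10 and 11.80 and 11.14 in E14 without tet, against 12.25 and 12.19 in E10 and 12.23 and 12.33 in E14 with tet. The control lines had 11.84 (P2) and 11.86 (U937T) without tet, against 12.26 and 12.29 with tet. At 24 h without tet both clones were at about the level that both control lines had at 48 h without tet, and at 48 h they were lower. The clone response was -0.40 ± 0.10 at 24 h and -1.12 ± 0.10 at 48 h (adjusted p = 7.21e-07). The EVI1-specific response was -0.69 ± 0.14 (adjusted p = 0.00776).

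MRPS17 is the counterpart of bacterial S17. It read 9.10 and 8.41 in E10 and 8.99 and 8.37 in E14 without tet at 24 and 48 h, against 9.65 and 9.57 in E10 and 9.67 and 9.50 in E14 with tet. P2 and U937T had 8.87 and 8.83 without tet, against 9.38 and 9.22 with tet. The groups without and with tet did not overlap in the clones at either time or in the control lines. The clone response at 48 h was -1.14 ± 0.08 (adjusted p = 1.58e-07) and the EVI1-specific response -0.69 ± 0.12 (adjusted p = 0.0033).

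MRPL12, the counterpart of the bacterial stalk protein that recruits translation factors, differed from the other 6 in that its control line response did not pass the test. It read 11.54 and 10.90 in E10 and 11.37 and 10.79 in E14 without tet at 24 and 48 h, against 12.06 and 11.79 in E10 and 11.97 and 11.80 in E14 with tet. P2 and U937T had 11.33 and 11.48 without tet, against 11.70 and 11.66 with tet. The clone response at 48 h was -0.95 ± 0.09 (adjusted p = 1.43e-06), the control line response -0.27 ± 0.09 (adjusted p = 0.0658) and the EVI1-specific response -0.68 ± 0.13 (adjusted p = 0.0057). A second, dimmer probe set gave -0.39 in the clones and -0.34 in the control lines.

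MRPS25, a protein of the small subunit particular to mitochondria, was the only one of the 28 such members with an EVI1-specific fall. It read 10.41 and 9.53 in E10 and 10.25 and 9.58 in E14 without tet at 24 and 48 h, against 10.84 and 10.71 in E10 and 10.63 and 10.64 in E14 with tet. P2 and U937T both had 10.12 without tet, against 10.68 and 10.52 with tet. The clone response at 48 h was -1.12 ± 0.10 (adjusted p = 9.42e-07) and the EVI1-specific response -0.64 ± 0.14 (adjusted p = 0.0163). Its other probe sets gave clone responses of -0.98 and -0.83, against control line responses of -0.49 and -0.51, so that the gap was smaller on them.

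**Figure D3:**
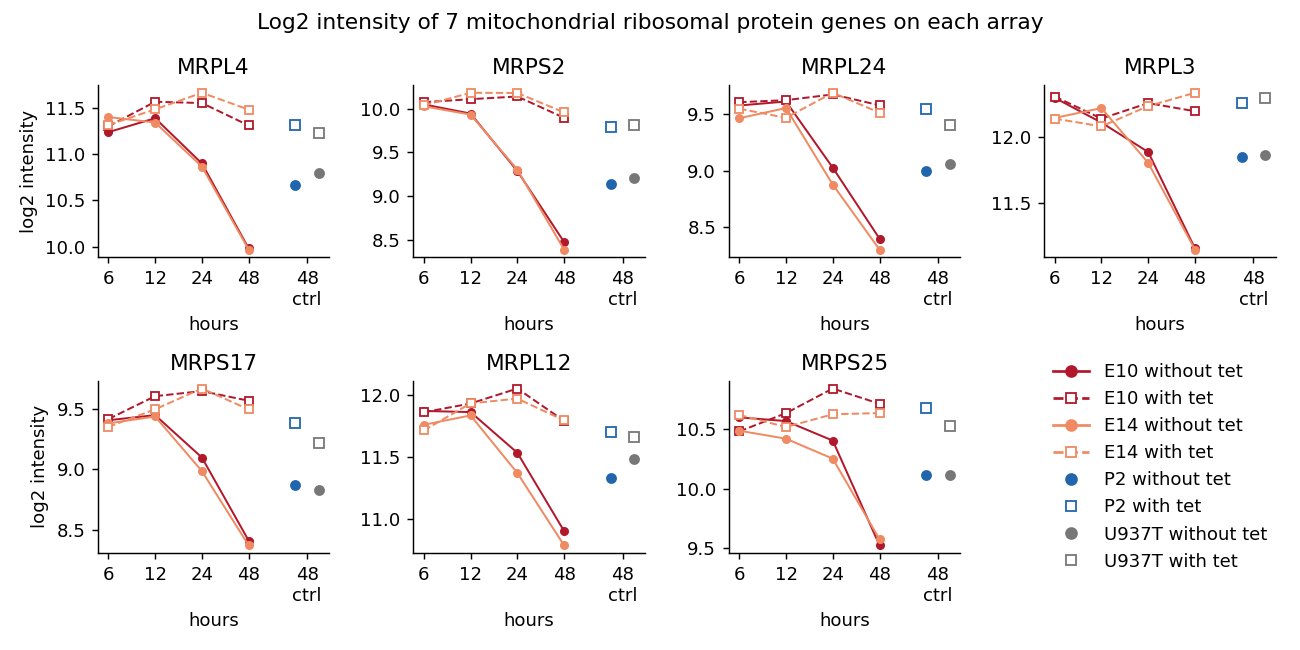
Log2 intensity of the 7 members with an EVI1-specific fall on each of the 20 arrays, by hours after tet withdrawal (E10 and E14 as lines, filled circles without tet and open squares with tet; P2 and U937T at 48 h at the right). At 48 h the clones without tet are the lowest arrays in each panel, for example 8.48 and 8.39 for MRPS2, against 9.14 and 9.21 in the control lines without tet.

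Each of the 7 genes had a lower clone response at 48 h than at 24 h, and 5 of them passed the test of the difference. The clone response at 48 h was below that at 24 h by the test of the difference for 5 of 75 members, where 1.63% of genes were lower and 2.07% higher, and the median difference was -0.27, against -0.02 over all genes. The 5 were MRPS25 (-0.72 ± 0.14, adjusted p = 0.0119), MRPL3 (-0.72 ± 0.14, adjusted p = 0.01), MRPL4 (-0.69 ± 0.14, adjusted p = 0.0124), MRPS2 (-0.63 ± 0.12, adjusted p = 0.00887) and MRPS17 (-0.52 ± 0.12, adjusted p = 0.0247). The 5 calls were not kept without E10, without E14 or without the E14 arrays at 12 and 24 h. Each of these fits leaves 1 array of the clones per condition at 24 h, and fewer of all genes passed.

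MRPS26, a protein of the small subunit particular to mitochondria, had the lowest value of all members at 24 h. At 24 and 48 h it read 8.96 and 8.41 in E10 and 8.67 and 8.30 in E14 without tet, against 9.99 and 9.47 in E10 and 9.72 and 9.62 in E14 with tet. The control lines had 8.81 (P2) and 8.94 (U937T) without tet, against 9.46 and 9.34 with tet. The clone response was -1.04 ± 0.14 at 24 h (adjusted p = 0.00015) and -1.19 ± 0.14 at 48 h (adjusted p = 1.45e-05), and their difference of -0.15 ± 0.20 did not pass the test (adjusted p = 0.764). Its EVI1-specific response of -0.66 did not pass either (adjusted p = 0.0735), and its second, dim probe set gave a clone response of -0.04. MRPS23, the only other member that fell more than 2-fold in the clones at 48 h (-1.11 ± 0.21, adjusted p = 0.000912), had a larger error than most members and an EVI1-specific response of -0.65 that did not pass (adjusted p = 0.265).

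Members of both subunits fell. For the counts that follow, 14.7% of all genes fell in the clones at 48 h, 9.16% at 24 h and 5.3% in the control lines. In the large subunit 37 of 50 members fell in the clones at 48 h (median -0.47), and in the small subunit 20 of 25 (median -0.59). At 24 h 18 of 50 and 12 of 25 fell, with medians of -0.21 and -0.29. In the control lines 13 of 50 (median -0.23) and 6 of 25 (median -0.30) fell. Of members with a bacterial counterpart 34 of 47 fell in the clones at 48 h (median -0.57), and of members particular to mitochondria 23 of 28 (median -0.51). The differences between these classes were not tested. The mean level of a member over the arrays and its clone response at 48 h had a correlation of 0.10 across the 75 genes, which share the arrays.

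The 18 members that did not pass at 48 h had clone responses between -0.47 and 0.001, and the 57 that fell had responses between -1.49 and -0.32. The 5 smallest changes belonged to MRPS14 (0.001), MRPL51 (-0.03), MRPS6 (-0.03), MRPL28 (-0.06) and MRPL49 (-0.07). MRPS14, the counterpart of bacterial S14, read 10.65 in E10 and 10.60 in E14 without tet at 48 h, against 10.67 and 10.58 with tet, so that the groups overlapped. Its levels over all 20 arrays ran from 10.43 to 10.71. The EVI1-specific response of MRPS14 was 0.07 ± 0.13 and that of MRPS6, the counterpart of bacterial S6, was 0.00, both with adjusted p above the threshold.

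The 3 paralogs of bacterial S18 gave clone responses of -0.61 ± 0.12 for MRPS18B, which fell (adjusted p = 0.00129), of -0.43 ± 0.17 for MRPS18C (adjusted p = 0.0661) and of -0.40 ± 0.18 for MRPS18A (adjusted p = 0.117). Differences between the paralogs were not tested. Among the 3 members with the highest mean level, MRPL3 (12.03) fell by 1.12, MRPL47 (12.08) fell by 0.34 and MRPL18 (11.97) had -0.22, which did not pass. The 3 with the lowest, MRPL55 (8.73), MRPL45 (8.80) and MRPL10 (8.94), fell by 0.59, 0.46 and 0.45.

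Probe sets of a gene did not always run together. Of 140 probe sets, 36 members had at least 2 that passed the intensity filter, and in 5 of these their clone responses at 48 h differed in sign. MRPL19 had -0.67 on its brightest probe set and 0.21 and -0.43 on the others. For MRPL20, MRPL38, MRPL39 and MRPS11 the brightest gave -0.35, -0.81, -0.47 and -0.22, and the one of opposite sign gave 0.09, 0.01, 0.16 and 0.17. The deviating probe sets had mean levels of 7.09, 3.32, 5.31, 3.39 and 6.80. Each gene was read from its brightest probe set, so that any deviating one is dimmer by that choice. For MRPL19 the deviating one was brighter than the one that gave -0.43, which had a mean level of 6.52.

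At 12 h the 2 clones differed. Across the 75 members the correlation of the changes in E10 and E14 was 0.43 at 6 h, -0.58 at 12 h, 0.90 at 24 h and 0.94 at 48 h, and that of P2 and U937T at 48 h was 0.35. Over all genes the same correlations were 0.17, -0.08, 0.76 and 0.89 for the clones and 0.46 for the control lines. These are descriptions over genes that share the arrays. In E14 at 12 h 13 members, chosen here by this value, were at least 0.3 higher without than with tet, and 12 of the 13 were lower in E10 at 12 h, as were 59 of all 75 members. MRPL42, a protein particular to mitochondria, had the largest such value. It read 10.59 in E14 at 12 h without tet, against 9.96 with tet, and 10.16 in E10 without tet, against 10.33 with tet. At 48 h it read 9.82 in E10 and 9.52 in E14 without tet, against 10.33 and 10.32 with tet, and it fell with a response of -0.66 ± 0.21 (adjusted p = 0.0281). The 13 members had a median standard error of 0.25 in the EVI1-specific response, against 0.14 for the other 62. The fit takes its spread from all arrays, those at 12 h included, so that a larger error follows in part from how the 13 were chosen.

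The 3′ to 5′ difference also varied between arrays, and whether it bears on this pattern was not tested. It was 0.46 in E14 at 12 h without tet, against 1.02 with tet, and in U937T 0.74 without tet, against 1.06 with tet. At 48 h in the clones it was 0.68 in E10 and 0.84 in E14 without tet, against 0.66 and 0.74 with tet. In P2 it was 0.99 without tet, against 0.84 with tet. The change at 48 h was lower in P2 than in U937T for all 13 members, and for 49 of all 75. The median changes of the 13 were -0.38 in P2 and -0.03 in U937T, against -0.26 and -0.27 for the other members. When the 3′ to 5′ difference was added to the fit as a covariate, 63 members fell in the clones at 48 h, against 57 without it. In the control lines 35 fell, against 19, and in the EVI1-specific response 12, against 7. Over all 17860 genes 2873, 1235 and 718 fell in these comparisons with the covariate, against 2623, 946 and 541 without it.

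**Figure D4:**
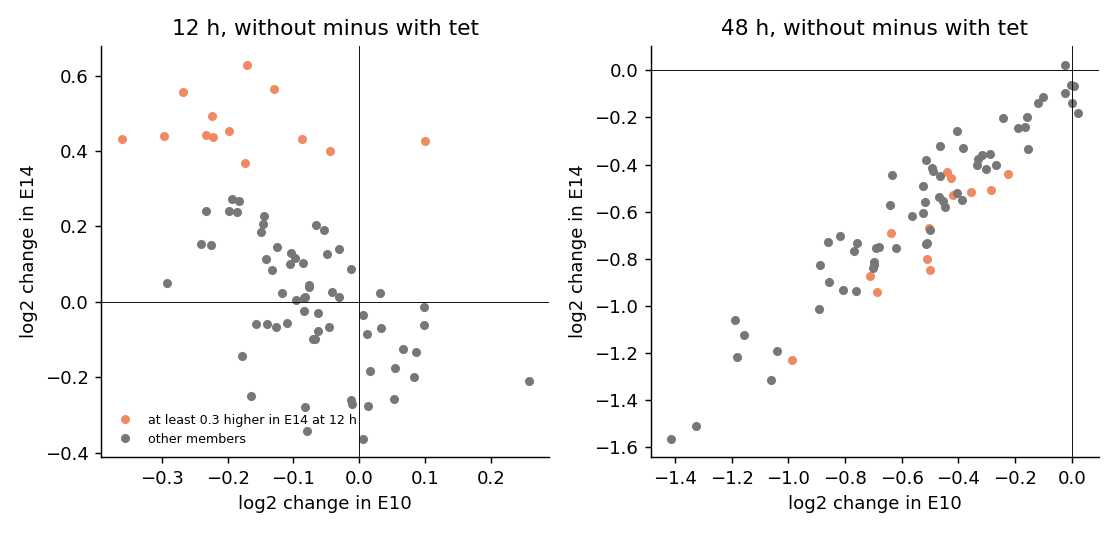
Log2 change, without minus with tet, in E14 (vertical axis) against E10 (horizontal axis) for the 75 members at 12 h (left) and 48 h (right). The 13 members at least 0.3 higher in E14 at 12 h (orange) lie apart at 12 h, with a median of 0.44 in E14, and among the others at 48 h, with a median of -0.67 in E14.

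Other genes that serve the mitochondrial ribosome mostly moved in the same direction. For the counts here and in the paragraphs that follow, 14.7% of all genes fell and 16% rose in the clones at 48 h. In the control lines 5.3% fell and 5.41% rose, and in the EVI1-specific response 3.03% were lower and 2.43% higher. Of 4 measured proteins of the mitoribosome that carry other symbols, 3 fell in the clones at 48 h (median -0.54), and GADD45GIP1, a large subunit protein, also in the EVI1-specific response (-0.55, adjusted p = 0.0417). Of 13 translation factors of mitochondria, 9 fell and 1 rose (median -0.72). TUFM, the elongation factor that brings tRNA to the mitoribosome, fell by 0.94 in the clones and by 0.43 in the control lines, with an EVI1-specific response of -0.51 (adjusted p = 0.0254). MTRF1L, a release factor, rose by 0.34 in the clones (adjusted p = 0.0168). In the control lines 6 of the 13 fell (median -0.30).

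Of 27 genes of mitoribosome assembly and rRNA modification, 20 fell in the clones at 48 h and 1, YBEY, rose (median -0.51), and 9 fell in the control lines (median -0.29). The EVI1-specific response of 4 passed the test, with RBFA, a small subunit assembly factor, at -0.76 (adjusted p = 0.00763), MALSU1, an assembly factor of the large subunit, at -0.56 (adjusted p = 0.0125) and MTERF3 at -0.52 (adjusted p = 0.0326). Of 15 aminoacyl-tRNA synthetases of mitochondria, which charge tRNAs, 11 fell in the clones (median -0.57) and 4 in the control lines (median -0.26). EARS2 (-0.83, adjusted p = 0.00148) and NARS2 (-0.81, adjusted p = 0.011) fell further in the clones. Of 11 genes of mitochondrial DNA maintenance, transcription and mRNA stability, 9 fell in the clones (median -0.67), 4 in the control lines (median -0.32) and 4 in the EVI1-specific response. TWNK, the mitochondrial helicase, fell by 2.00 in the clones (adjusted p = 1.17e-08) and had an EVI1-specific response of -1.11 (adjusted p = 0.000748). TFAM, which packages and transcribes mitochondrial DNA, had -0.68 (adjusted p = 0.0127).

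The mRNAs that the mitoribosome translates and the genes for the cytosolic ribosome were read in the same way. Of 7 measured mRNAs of the mitochondrial genome none passed the test in the clones at 48 h (0 also at an unadjusted p under 0.05), with a median of 0.09 and a range of 0.00 to 0.15. Probe sets of 5 of them, among them COX1 at a mean of 14.40, lie near the top of the intensity scale (14.49), where a change would be hard to see. Of 53 measured proteins of the cytosolic ribosome 7 fell and 1 rose (median -0.11), where 14.7% of all genes fell and 16% rose, most of them at similarly high levels (median 13.7). By sign alone, 49 of the 53 were lower in the clones at 48 h (55.7% of genes) and 46 in the control lines (54.8% of genes). By the test none of the 53 fell or rose in the control lines (1 lower at an unadjusted p under 0.05). The same held in the EVI1-specific response (1 lower and 1 higher at an unadjusted p under 0.05). No test of these lists against the mitochondrial ribosomal protein genes was made.

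**Figure D5:**
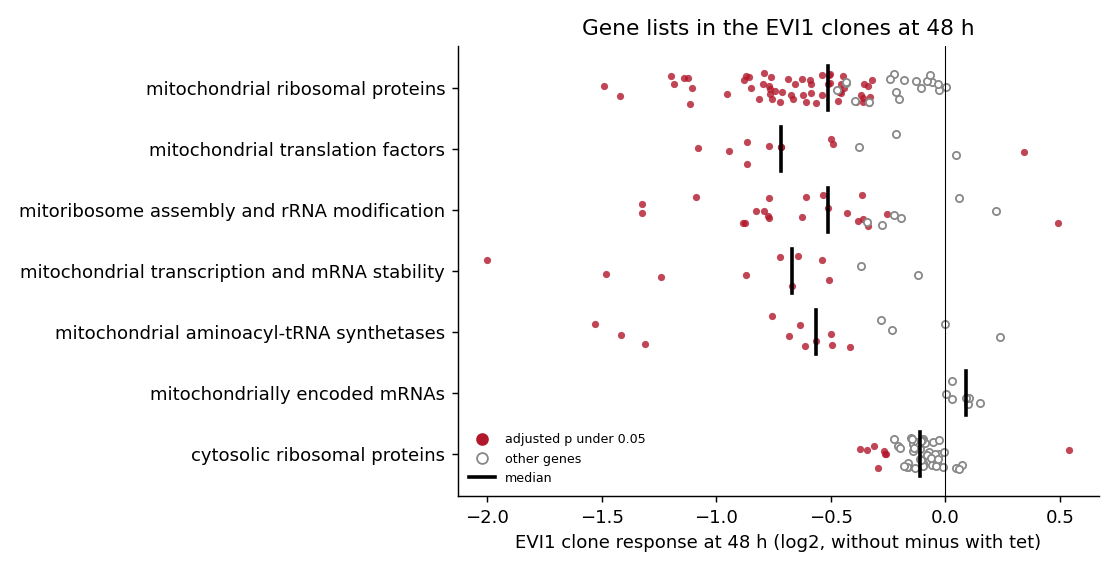
EVI1 clone response at 48 h (log2, horizontal axis) of the 75 mitochondrial ribosomal protein genes and of 6 comparison lists, 1 point per gene, filled where the adjusted p was under 0.05, with the median as a black line. Medians are -0.51 for the mitochondrial ribosomal proteins, 0.09 for mitochondrially encoded mRNAs and -0.11 for cytosolic ribosomal proteins.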

How the data were processed

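RNA of 20 cultures was hybridized to Affymetrix human whole-genome arrays. The deposited values are log2 intensities, summarized by the authors with Robust Multi-array Analysis (background correction, quantile normalization, median polish), whose software version is not given in the sources used here. Quantile normalization sets the arrays to a common distribution, so that a shift of all genes cannot be seen. Of 54675 probe sets, those with 1 gene symbol (41097) were used, and 1801 with several and 11777 without were left out. A mean of at least 3 was required at 24 and 48 h in each clone and at 48 h in each control line. Each gene was read from its brightest probe set (17860 genes).

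All arrays were fitted in limma 3.58.1 (R 4.3.3) with 10 groups and the line as a block (8 residual and 5.74 prior degrees of freedom), and p-values were adjusted over all genes (Benjamini and Hochberg). The line pairs the cultures because both came from the same cell line. Over 28 pairs of groups the gap between E10 and E14 correlated across genes with a median of 0.11 (-0.22 to 0.52), and the gap between P2 and U937T with -0.21. Scripts were tested on simulated data. The number of arrays limits the precision.

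Members and lists were chosen with earlier results of these data known. Named genes are up to 10 EVI1-specific members in each direction by size among those that passed, the 3 largest in each other comparison, the 5 smallest clone responses at 48 h, the 3 highest and 3 lowest mean levels, the MRPS18 paralogs, members with probe sets of opposite sign, and up to 3 genes per comparison list. MRPS23, MRPL42, MRPL33, MTRF1L, YBEY and COX1 were named after their values were seen. Promoter sequences are from RefSeq.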

Additional observations from a re-analysis of the deposited data

Results flagged for a closer look

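In 7 members the response of the EVI1 clones at 48 h differed from that of the control lines by the test of the difference itself, and each was lower in both clones than in both control lines. The EVI1-specific log2 responses were -0.88 for MRPL4, -0.87 for MRPS2, -0.75 for MRPL24, -0.69 for MRPL3, -0.69 for MRPS17, -0.68 for MRPL12 and -0.64 for MRPS25. The control line arm of this difference rests on 2 cultures without and 2 with tet.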

How the results depend on the processing

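No member rose in any comparison under any alternative, and none fell at 6 or 12 h. The median EVI1-specific response stayed between -0.32 and -0.23 and the median clone response at 48 h between -0.56 and -0.50. With the line left out as a block, which gives up the pairing, 27 members fell at 24 h, 53 at 48 h in the clones, 17 in the control lines and 7 in the EVI1-specific response, and no count moved by more than 1.5 times. With the probe set of the largest SD, 19 members fell at 24 h, 9 in the control lines, 5 in the EVI1-specific response and 2 from 24 to 48 h. MRPL4 and MRPS25 no longer passed in the EVI1-specific response. The clone response of MRPL19 turned to 0.21 (adjusted p = 0.297), since another probe set was read. With a mean of at least 5 required, 11 fell in the EVI1-specific response and 9 from 24 to 48 h, and with an intensity trend and robust estimation 14 and 9. With only the arrays at 48 h, 2 fell in the control lines and 2 in the EVI1-specific response, where 324 and 195 of 17860 genes fell. With the covariate for RNA length (3′ to 5′) these counts were 35 and 12, where 1235 and 718 of 17860 genes fell. Without the E14 arrays at 12 and 24 h 6 members fell at 24 h, 11 in the control lines and 0 from 24 to 48 h. Leaving out each line in turn gave 1 to 30 at 24 h, 17 to 55 at 48 h, 1 to 6 in the control lines, 0 to 7 in the EVI1-specific response and 0 to 6 from 24 to 48 h. The low ends came without E10 or E14, where the lone clone is assumed to vary like the control lines, and in the control lines also without P2. The EVI1-specific response of each of the 7 genes kept its sign in every alternative. MRPS2 passed in all but the fits without E10 and without E14, and MRPS25 failed in 6. The number of arrays is 1 limit on these calls, beside the choice of probe set and RNA length above.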
